A study of Mus musculus with 4 samples.

Results

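The genes described here encode the matrix metalloproteinases (MMPs), the ADAM, ADAMTS and ADAMTS-like proteins, and the tissue inhibitors of metalloproteinases (TIMPs). They were taken by name, as every gene of the count table whose symbol starts with *Mmp*, *Adam*, *Adamts*, *Adamtsl* or *Timp* followed by a number, with names that contain -ps left out. *Mmp1a*, annotated as a polymorphic pseudogene, stayed in. This gave 84 of 49315 genes, of which 23 were *Mmp*, 33 *Adam*, 19 *Adamts*, 5 *Adamtsl* and 4 *Timp* genes. Group 2 innate lymphoid cells (ILC2s) had been gated as Lineage-Thy1.2+ICOS+T1/ST2+ in a sort of mouse lung cells, kept in culture with IL-2 and sequenced, with 1 library in each of 4 groups. The groups were WT mice given PBS (PBS-WT), *Hps1*-/- mice given PBS (PBS-HPS1), WT mice given bleomycin (BLEO-WT) and *Hps1*-/- mice given bleomycin (BLEO-HPS1). *Hps1* is a gene mutated in Hermansky-Pudlak syndrome, bleomycin injures the lung and is followed by fibrosis, and PBS is the saline given in its place. The labels do not give the age of the mice, the dose or route of bleomycin, or how many mice a library stands for.

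MMPs are zinc-dependent enzymes that cut collagens, elastin and other parts of the extracellular matrix, and they are made as inactive precursors. ADAMs sit in the cell membrane and release growth factors, cytokine receptors and adhesion molecules from the cell surface, while ADAMTS enzymes are secreted and act on procollagens and proteoglycans. TIMPs bind the active site of these enzymes, and the balance of enzymes and inhibitors is a classical theme of lung fibrosis.

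The libraries held 22405 cells (PBS-WT), 38873 cells (PBS-HPS1), 84166 cells (BLEO-WT) and 128647 cells (BLEO-HPS1), and their total counts were 72513619, 77703133, 87638154 and 77428740. Levels are given as CPM, reads put on a common library size with TMM factors, and 3 reads corresponded to between 0.0303 and 0.0475 CPM. A ratio is the difference of log2 CPM between 2 libraries, computed with a prior count of 2, and the 14840 genes that reached 1 CPM in some library were compared. Since each group had 1 library, no difference has a replicate check, and the 95% exact intervals on ratios cover counting error only, as reads copied by PCR are not separate molecules. *Hps1* itself had 38.3 CPM in PBS-WT and 16.6 in PBS-HPS1, and 48.4 in BLEO-WT against 21.3 in BLEO-HPS1. It was lower in both *Hps1*-/- libraries than in either WT library.

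Of 12 listed ILC2 markers 11 were analysed, and all 11 had reads in every library. Their summed CPM was 2327 in PBS-WT and 1950 in PBS-HPS1, and 1296 in BLEO-WT against 1256 in BLEO-HPS1. *Ptprc*, which encodes the leukocyte antigen CD45 and is not confined to ILC2s, was the most abundant in all but BLEO-HPS1, where *Thy1* was, and had 1429.6, 1151, 529 and 333 CPM in that order. *Thy1* had 306.5, 206, 224 and 551 CPM, so the closeness of the sums in the bleomycin libraries rests in part on this gene. Between the bleomycin libraries the median log2 ratio of the 11 was -0.63, with 2 at least 2-fold higher in BLEO-HPS1 and 0 lower. Once trends of the ratios with GC content and length, given below, were removed, the median was 0.01 and none of the 11 passed 2-fold. *Gata3*, a transcription factor that ILC2s require, was at 38.4, 39.1, 25.1 and 26.9 CPM, and *Il7r*, a cytokine receptor gene, at 179.6, 205, 149 and 76.9. Markers of cells that the sort is meant to remove had reads as well, and their values stand beside the results they move with. In such bulk libraries fewer cells of a type and less RNA per cell cannot be told apart.

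Of the 84 members, 46 reached 1 CPM in some library and were compared, 14 *Mmp*, 11 *Adam*, 12 *Adamts*, 5 *Adamtsl* and 4 *Timp* genes. Of these, 42 reached it in all 4 libraries, while *Timp4* passed through BLEO-HPS1 alone. Members took 0.170% of the reads in PBS-WT and 0.179% in PBS-HPS1, and 0.273% in BLEO-WT against 0.230% in BLEO-HPS1. To compare families, CPM was divided by transcript length. Summed over the *Mmp* genes, CPM per kb was 138 in PBS-WT and 86.6 in PBS-HPS1, and 276 in BLEO-WT against 270 in BLEO-HPS1. The *Timp* sum was 53.0, 59.3, 164 and 215, so both sums were higher in the bleomycin libraries. The ratio of the *Mmp* sum to the *Timp* sum was 2.60 in PBS-WT and 1.46 in PBS-HPS1, and 1.68 in BLEO-WT against 1.25 in BLEO-HPS1. This ratio does not depend on library scaling, and it was lower in *Hps1*-/- than in WT under either treatment. Neither sum was corrected for the trends with GC content and length, which do not cancel in the ratio. In PBS-WT, *Mmp9* alone made up 41.8% of the *Mmp* sum. From PBS-WT to PBS-HPS1, *Mmp9* went from 57.7 to 23.0 CPM per kb and *Mmp8* from 22.9 to 9.56, while *Mmp19* went from 18.4 to 25.7. Of 10 neutrophil markers compared, 10 were at least 2-fold lower in PBS-HPS1 than in PBS-WT. Their part in the ratio of the sums was not tested. The *Adam* sum was 179, 144, 320 and 244 CPM per kb, the *Adamts* sum 31.8, 52.2, 36.5 and 49.2, and the *Adamtsl* sum 8.84, 11.4, 40.8 and 37.6. Of the 46 compared members, 25 (54.3%) had their highest CPM in BLEO-HPS1, where 41.4% of all compared genes had theirs. Scaled by total counts without TMM factors, these were 18 members (39.1%) and 29.9% of all genes.

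**Figure D1:**
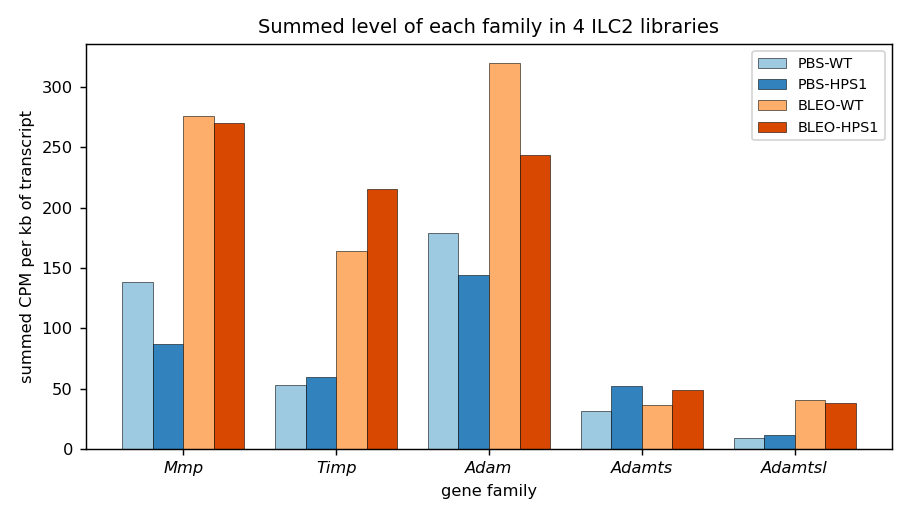
Summed CPM per kb of transcript (vertical axis) for each gene family (horizontal axis), with 1 bar for each of the 4 libraries. The *Timp* sum climbs from 53.0 in PBS-WT to 215 in BLEO-HPS1, while the *Mmp* sums of the bleomycin libraries lie close together at 276 and 270.

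BLEO-HPS1 against BLEO-WT asks how the genotypes differ after injury. Of the 46 members, 13 (28.3%) were at least 2-fold higher in BLEO-HPS1, where 6.72% of all compared genes were, and 7 (15.2%) were at least 2-fold lower, where 10.3% of all genes were. The median log2 ratio was 0.23 over the members and -0.04 over all genes. By family the median was 1.12 for *Adamtsl*, 0.87 for *Adamts*, 0.39 for *Timp*, 0.30 for *Mmp* and -0.73 for *Adam* genes, and no *Adam* gene was 2-fold higher. These ratios were related to transcript base composition and length, with Spearman's rho of 0.637 for GC content and -0.501 for length across 11133 genes, which are not independent replicates. A loess correction for both gave family medians of 0.71, 0.75, 0.82, 0.01 and -0.43 in the same order. It gave 11 members higher, against 5.02% of all genes, and 4 lower, against 4.32%. *Timp4* was newly higher, at 1.04 in place of 0.62, while *Mmp11*, *Adamts8* and *Adamtsl2* were no longer 2-fold higher. The same genotypes under PBS show the difference without injury. Here 9 members (19.6%) were at least 2-fold higher in PBS-HPS1 against 2.16% of all genes, and 5 (10.9%) lower against 3.11%, with medians of 0.18 for the members and -0.19 for all genes. Under PBS, Spearman's rho was -0.081 for GC content and 0.430 for length, the latter opposite in sign to that between the bleomycin libraries. The correction left 6 higher, against 1.92%, and 5 lower, against 3.10%. The *Mmp* and *Adamts* families lay on opposite sides, with medians of -0.30 and 0.82, or -0.35 and 0.70 after the correction. With total counts in place of TMM factors the *Mmp* median was -0.06, 12 members were higher against 3.92% of all genes, 3 were lower against 2.02%, and the all-gene median was 0.05, while for the bleomycin libraries it was -0.17.

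These comparisons of genotype share no library, and 5 members were at least 2-fold higher in *Hps1*-/- in both, where 0.849% of all genes were. They were *Mmp3*, *Timp1*, *Adamts5*, *Adamts8* and *Adamtsl2*, which is 55.6% of the 9 under PBS and 38.5% of the 13 after bleomycin. Over all genes the corresponding shares were 39.3% and 12.6%. After the correction 3 members were left, *Mmp3*, *Timp1* and *Adamts5*, against 0.702% of all genes. A prior count of 10 left *Adamts5*, *Adamts8* and *Adamtsl2*, against 0.620%. *Mmp8* was the 1 member at least 2-fold lower in both, where 0.512% of all genes were. *Adamts5*, named here after its values were seen, encodes an aggrecan-cutting enzyme and had 1.19 CPM in PBS-WT and 2.92 in PBS-HPS1, and 1.93 in BLEO-WT against 4.73 in BLEO-HPS1.

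BLEO-WT against PBS-WT and BLEO-HPS1 against PBS-HPS1 give the ratio of bleomycin to PBS in each genotype. They share no library with each other, but each shares libraries with both comparisons of genotype. In WT, 16 members (34.8%) were at least 2-fold higher after bleomycin against 5.28% of all genes, and 2 (4.35%) lower against 8.22%. In *Hps1*-/-, 22 members (47.8%) were higher against 26.2% of all genes, and 7 (15.2%) lower against 19.6%. The members' median was 0.43 in WT and 0.93 in *Hps1*-/-, beside 0.09 and 0.25 over all genes. Total counts alone shifted the all-gene medians to -0.17 and -0.39 and gave 13 members higher and 4 lower in WT, against 3.24% and 12.9% of all genes. In *Hps1*-/- it gave 14 higher and 13 lower, against 9.33% and 33.3%. The *Adamts* medians, 0.25 in WT and 0.41 in *Hps1*-/-, then changed sign to -0.01 and -0.22. Spearman's rho with GC content and length was 0.498 and -0.257 in WT and 0.625 and -0.522 in *Hps1*-/-. The correction gave 16 members higher and 3 lower in WT, against 5.66% and 5.22% of all genes. In *Hps1*-/- it gave 21 higher against 17.0% of all genes and 6 lower against 7.89%, and the *Adam* median there moved from -0.57 to 0.54.

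In both genotypes 14 members were at least 2-fold higher with bleomycin, where 3.99% of all genes were. These were *Mmp2*, *Mmp3*, *Mmp12*, *Mmp14*, *Timp1*, *Timp2*, *Timp4*, *Adam8*, *Adam15*, *Adamts8*, *Adamts15*, *Adamtsl2*, *Adamtsl4* and *Adamtsl5*, or 87.5% of the 16 in WT and 63.6% of the 22 in *Hps1*-/-, where the all-gene shares were 75.6% and 15.2%. *Timp4* reached 1 CPM in BLEO-HPS1 alone, so that its being compared at all is tied to the library in which it is high. *Adam22* was the 1 member lower in both, against 5.44% of all genes. With total counts alone 9 of the 14 stayed higher in both, against 2.10% of all genes, without *Timp4*, *Adam8*, *Adamts8*, *Adamts15* and *Adamtsl5*. The correction gave 12, against 4.03%, with *Adamts5* gained and *Adam8*, *Adamts8* and *Adamtsl5* lost. *Mmp15* joined *Adam22* as lower in both under either alternative, against 10.2% of all genes with total counts and 2.32% after the correction. The bleomycin ratio of *Hps1*-/- exceeded that of WT by a log2 difference of at least 1 for 10 members (21.7%), against 16.3% of all genes, and fell short of it by as much for 8 (17.4%), against 11.2%. With total counts alone these counts were 7 and 11, against 7.20% and 21.6% of all genes, and after the correction 11 and 5, against 9.96% and 5.69%.

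**Figure D2:**
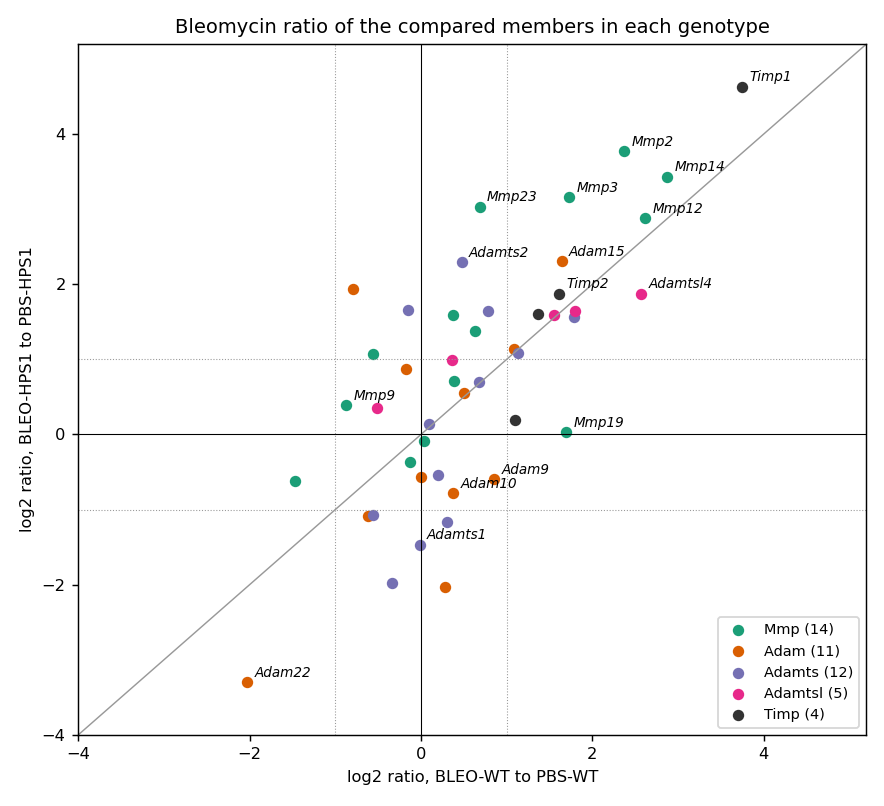
Log2 ratio of bleomycin to PBS in WT (horizontal axis) and in *Hps1*-/- (vertical axis) for the 46 compared members, 1 point per gene colored by family, with the diagonal of equal ratios and dotted lines at 2-fold. *Timp1*, at 3.75 and 4.63, lies farthest to the upper right and *Adam22*, at -2.03 and -3.30, farthest to the lower left, while *Mmp23* and *Adamts2* lie well above the diagonal.

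The gelatinases, *Mmp2* and *Mmp9*, cut denatured collagen and basement membrane collagen. *Mmp2* (ENSMUSG00000031740, chr8:92827291-92853420 in GRCm38) had 7.34 CPM in PBS-WT and 12.6 in PBS-HPS1, and 38.0 in BLEO-WT against 172 in BLEO-HPS1. *Mmp9* (ENSMUSG00000017737, chr2:164940780-164955850) had 183, 73.1, 99.9 and 95.6 CPM in the same order. PBS-WT was thus the lowest library for *Mmp2* and the highest for *Mmp9*, and BLEO-HPS1 was the highest for *Mmp2*. Per kb of transcript, *Mmp9* was at 57.7 and *Mmp2* at 2.38 in PBS-WT, whereas in BLEO-HPS1 *Mmp9* was at 30.1 and *Mmp2* at 55.8. The log2 ratio of BLEO-HPS1 over BLEO-WT was 2.18 for *Mmp2* (2.12 to 2.24), and -0.06 for *Mmp9* (-0.11 to -0.02). Under PBS, *Mmp9* was lower in *Hps1*-/-, with a log2 ratio of -1.32.

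*Mmp8*, a collagenase stored in neutrophil granules, had 55.5 CPM in PBS-WT and 23.2 in PBS-HPS1, and 50.6 in BLEO-WT against 18.0 in BLEO-HPS1. It was lower in each *Hps1*-/- library than in either WT library, with log2 ratios of -1.26 under PBS (-1.33 to -1.19) and -1.49 after bleomycin (-1.59 to -1.40). *Mmp25*, which encodes the membrane-bound neutrophil enzyme leukolysin and is named after its values were seen, had 30.8, 14.2, 20.9 and 29.7 CPM, a log2 ratio of -1.12 under PBS and 0.51 after bleomycin. The *Mmp9* product is stored in neutrophils as well. The 11 listed neutrophil markers had a summed CPM of 1496 in PBS-WT and 391 in PBS-HPS1, and 784 in BLEO-WT against 371 in BLEO-HPS1, and *S100a9*, the most abundant in all but PBS-HPS1, was at 517, 109, 287 and 103. Of the 10 compared, 10 were at least 2-fold lower in PBS-HPS1 than in PBS-WT, and 2 were higher and 4 lower in BLEO-HPS1 than BLEO-WT, or 1 and 6 after the correction. No marker of that list had 0 reads in any library, and *Ly6g*, which marks mature neutrophils, was at 4.05, 0.586, 2.32 and 1.06 CPM. Their part in the *Mmp8*, *Mmp9* and *Mmp25* values was not tested.

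The stromelysin *Mmp3* (ENSMUSG00000043613) activates other MMP precursors. It had 1.64 CPM in PBS-WT and 3.33 in PBS-HPS1, and 5.51 in BLEO-WT against 30.0 in BLEO-HPS1, with a log2 ratio of 2.44 between the bleomycin libraries (2.29 to 2.60). Its log2 ratio under PBS, 1.01, was 0.97 with a prior count of 10. *Mmp23* (ENSMUSG00000029061), an MMP anchored by its N-terminal end, had 1.01, 1.55, 1.65 and 12.8 CPM. The first 3 libraries were thus close together and BLEO-HPS1 stood apart, with a log2 ratio of 2.94 to BLEO-WT (2.69 to 3.24). After the correction this was 2.30, below the 2.58 of *Mmp3*. *Mmp11*, the other compared stromelysin and also named after its values were seen, had 2.08, 1.92, 2.69 and 5.81 CPM.

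*Mmp12* encodes macrophage elastase and had 37.0 CPM in PBS-WT and 17.3 in PBS-HPS1, and 227 in BLEO-WT against 127 in BLEO-HPS1. *Mmp14*, the membrane-bound activator of the *Mmp2* product, had 32.6, 22.4, 239 and 242 CPM. Both were higher in either bleomycin library than in either PBS library, and *Mmp12* had fewer CPM in *Hps1*-/- under both treatments. Between the bleomycin libraries its log2 ratio was -0.83, and -0.16 after the correction. The bleomycin to PBS log2 ratio was 2.62 in WT and 2.88 in *Hps1*-/- for *Mmp12*, and 2.87 and 3.43 for *Mmp14*. The correction gave 3.32 and 4.31 for *Mmp12* and 2.73 and 2.99 for *Mmp14*. Per kb, *Mmp14* was the highest *Mmp* gene after bleomycin, at 73.8 in BLEO-WT and 74.8 in BLEO-HPS1. *Mmp12* under PBS had a log2 ratio of -1.09 between genotypes that was -0.85 with total counts alone. *Mmp19*, another secreted MMP, had 62.8, 87.5, 203 and 89.2 CPM. It was high in BLEO-WT alone, so that its log2 ratio to PBS was 1.70 in WT and 0.03 in *Hps1*-/-, the latter -0.61 with total counts alone.

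Macrophages are known to express *Mmp12*, *Mmp14* and *Mmp19*. The 14 listed macrophage markers had a summed CPM of 3645 in PBS-WT and 2778 in PBS-HPS1, and 7692 in BLEO-WT against 8298 in BLEO-HPS1, and *Csf1r*, the highest by mean CPM, was at 642, 379, 1347 and 1603. Within the list the genes did not move together, and the most abundant was *Ear2* in PBS-WT, *Mrc1* in PBS-HPS1 and *C1qa* in both bleomycin libraries. After bleomycin in WT, 6 were at least 2-fold higher and 2 lower, and in *Hps1*-/- 5 were higher and 4 lower, while 0 were higher and 3 lower in BLEO-HPS1 than BLEO-WT. *C1qb* was at 100.2, 51.7, 1214 and 1720 CPM, and *Krt79*, a gene of alveolar macrophages, at 274, 218, 44.0 and 26.3. *Cd163*, named after its values were seen, was at 33.4, 24.8, 134 and 27.4 CPM. It was high in BLEO-WT alone, as *Mmp19* was, whereas *Csf1r* and *C1qb* were highest in BLEO-HPS1 and *Krt79* in PBS-WT. No macrophage marker had 0 reads in any library, and the part of these cells in the MMP values was not tested.

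**Figure D3:**
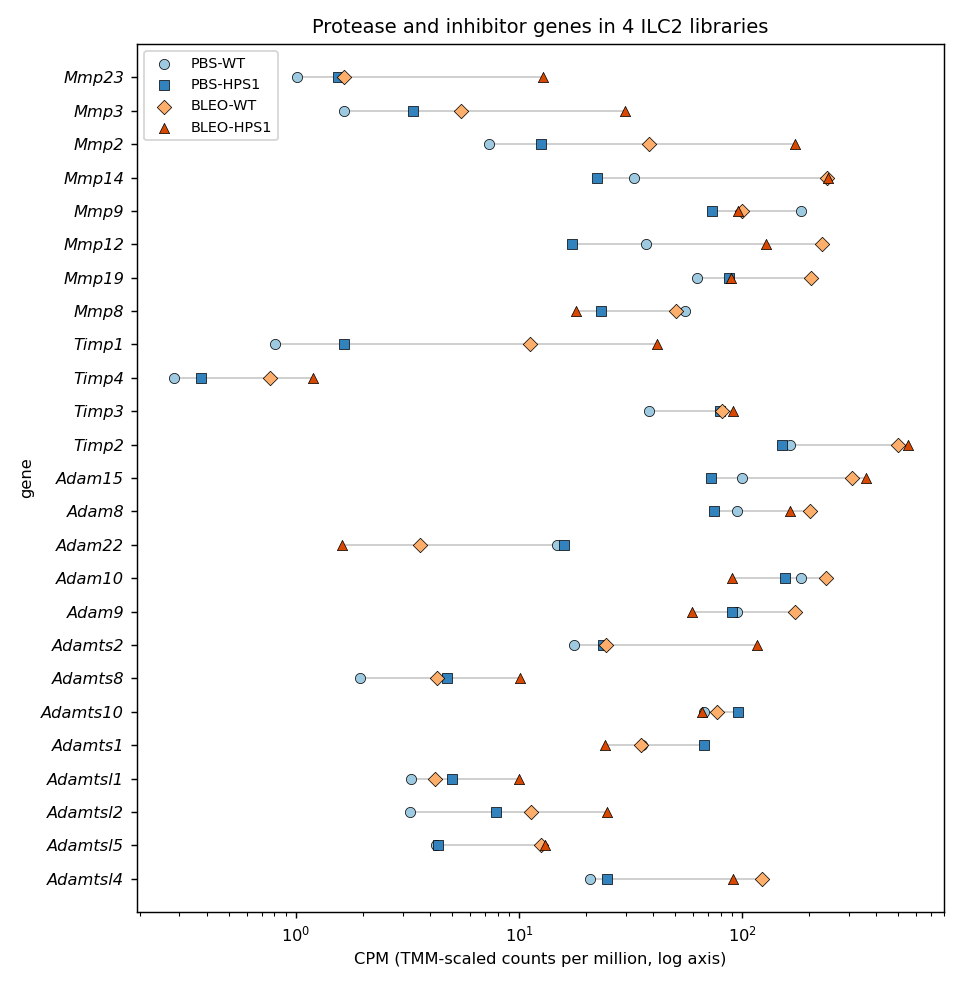
CPM on a log axis (horizontal) of the 25 members described in full (vertical axis), with 1 symbol for each of the 4 libraries and a line from the lowest to the highest. BLEO-HPS1 stands far to the right of the other libraries for *Mmp23*, *Mmp3*, *Mmp2* and *Adamts2*, and farthest to the left for *Adam9*, *Adam10*, *Adam22* and *Mmp8*.

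Among the inhibitors, *Timp2* (ENSMUSG00000017466), which also takes part in the activation of the *Mmp2* product by *Mmp14*, had 163 CPM in PBS-WT and 150 in PBS-HPS1, and 499 in BLEO-WT against 552 in BLEO-HPS1. *Timp1* (ENSMUSG00000001131, chrX:20870166-20874735), the inducible inhibitor, had 0.808, 1.65, 11.2 and 41.4 CPM. Both were higher in the bleomycin libraries, and *Timp1* was also higher in *Hps1*-/- than in WT under either treatment. Its log2 ratio of bleomycin to PBS was 3.75 in WT (3.42 to 4.18) and 4.63 in *Hps1*-/- (4.42 to 4.89), and after the correction 3.55 and 3.80, the latter below the 4.31 of *Mmp12*. Under PBS its log2 ratio between genotypes, 1.004, rested on 63 and 163 reads and was 0.92 with a prior count of 10. Per kb, *Timp2* was the highest of all members in PBS-HPS1, BLEO-WT and BLEO-HPS1, at 40.6, 134 and 149, and in BLEO-HPS1 *Timp1* was at 46.9. *Timp3*, which is held in the matrix and also inhibits ADAMs, had 38.0, 79.5, 81.2 and 90.6 CPM. PBS-WT was the low library for *Timp3*, so that the bleomycin ratio was 1.09 in WT and 0.19 in *Hps1*-/-, with total counts alone these were 0.83 and -0.45, and after the correction 1.28 and 0.92. Its log2 ratio between genotypes under PBS, 1.06, was 0.97 after the correction. *Timp4* stayed low in every library, with 22, 37, 60 and 75 reads or 0.282, 0.374, 0.765 and 1.19 CPM. Its ratio in *Hps1*-/-, 1.60, was 0.99 with total counts alone.

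The ADAM proteases known outside the testis, 8 of 9 of them compared, had a summed CPM per kb of 173 in PBS-WT and 139 in PBS-HPS1, and 316 in BLEO-WT against 239 in BLEO-HPS1. *Adam10*, a main sheddase of Notch, had 183 CPM in PBS-WT and 156 in PBS-HPS1, and 238 in BLEO-WT against 90.4 in BLEO-HPS1. *Adam9* had 94.9, 89.8, 172 and 59.3 CPM. For both genes BLEO-WT was the highest library and BLEO-HPS1 the lowest, with log2 ratios between them of -1.40 for *Adam10* (-1.44 to -1.35) and -1.54 for *Adam9* (-1.59 to -1.48). *Adam17*, the sheddase of tumor necrosis factor and named after its values were seen, had 126, 95.3, 126 and 64.4 CPM. It too was lowest in BLEO-HPS1, with a log2 ratio of -0.97 to BLEO-WT that did not pass 2-fold. After the correction the log2 ratio was -0.71 for *Adam10*, -1.12 for *Adam9* and -0.44 for *Adam17*, so that *Adam10* no longer passed 2-fold. The correction also turned the ratio of BLEO-HPS1 to PBS-HPS1 of *Adam17* from -0.57 to 0.37, of *Adam10* from -0.78 to 0.54 and of *Adam9* from -0.60 to 0.09, so BLEO-HPS1 was then not the lowest library for any of the 3.

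*Adam15* and *Adam8* went another way. *Adam15*, an adhesion-binding ADAM, had 100.1 CPM in PBS-WT and 72.7 in PBS-HPS1, and 312 in BLEO-WT against 360 in BLEO-HPS1. It was higher in the bleomycin libraries, with log2 ratios to PBS of 1.64 in WT and 2.31 in *Hps1*-/-, and per kb it was second only to *Timp2* in both. The *Adam15* ratio in *Hps1*-/- was 1.66 after the correction and also 1.66 with total counts alone. Between the bleomycin libraries its log2 ratio was 0.21, or -0.28 after the correction. *Adam8*, a leukocyte sheddase, had 95.2, 74.8, 202 and 164 CPM. Its log2 ratios to PBS, 1.09 and 1.13, were 0.94 and 0.65 after the correction and 0.82 and 0.49 with total counts alone. *Adam11*, *Adam22* and *Adam23* encode ADAMs without protease activity that are best known from the nervous system. *Adam22* was at 14.8, 15.97, 3.60 and 1.60 CPM, high in both PBS libraries and low in both bleomycin libraries, with log2 ratios of -2.03 in WT and -3.30 in *Hps1*-/-, or -1.55 and -1.84 after the correction. Its log2 ratio of -1.16 between the bleomycin libraries was -0.43 after the correction. *Adam11* and *Adam23*, named after their values were seen, did not share this pattern. *Adam11* had 4.07, 1.13, 2.33 and 4.40 CPM, with log2 ratios of -0.79 in WT and 1.94 in *Hps1*-/-. *Adam23* had 17.0, 11.2, 15.1 and 20.5 CPM, with log2 ratios of -0.17 and 0.87, or 0.06 and 1.79 after the correction. The remaining 21 *Adam* genes, many of them known from the testis, were below 1 CPM in every library, and together they had at most 1.23 CPM per kb.

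Among ADAMTS enzymes, *Adamts2* (ENSMUSG00000036545, chr11:50602084-50807573) removes the N-terminal propeptide of fibrillar procollagens. It had 17.5 CPM in PBS-WT and 23.8 in PBS-HPS1, and 24.4 in BLEO-WT against 116 in BLEO-HPS1. BLEO-HPS1 stood apart from the other libraries, with a log2 ratio to BLEO-WT of 2.25 (2.18 to 2.33), and 2.39 after the correction. *Adamts14*, which has the same activity and was named after its values were seen, was highest in PBS-HPS1 instead, with 9.84, 27.4, 6.64 and 13.0 CPM. *Adamts10*, a protein of fibrillin microfibrils, had 67.3, 95.6, 77.0 and 65.9 CPM and was the highest *Adamts* gene per kb in every library. *Adamts1*, a proteoglycan-cutting enzyme, was at 35.5, 67.3, 35.1 and 24.3 CPM. Both peaked in PBS-HPS1, and the *Adamts1* log2 ratio of bleomycin to PBS was -0.01 in WT and -1.47 in *Hps1*-/-. *Adamts8*, of the same enzyme group, had 1.94, 4.77, 4.27 and 10.1 CPM. Its log2 ratios were between 1.08 and 1.29 in all 4 comparisons, and the correction left 0.87 between the bleomycin libraries, 0.94 for bleomycin in WT and 0.56 in *Hps1*-/-, while the ratio under PBS was 1.25. With total counts alone the bleomycin ratios were 0.87 and 0.44.

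The ADAMTS-like proteins resemble ADAMTS enzymes but lack the protease domain, and several bind fibrillin. All 5 were compared. *Adamtsl4* had 20.7 CPM in PBS-WT and 24.7 in PBS-HPS1, and 123 in BLEO-WT against 90.6 in BLEO-HPS1. It made up most of the family's summed CPM per kb, between 53.5% and 74.9%, with a bleomycin to PBS log2 ratio of 2.57 in WT and 1.87 in *Hps1*-/-. The *Adamtsl4* ratio in *Hps1*-/- was 1.28 after the correction and 1.23 with total counts alone. *Adamtsl2* had 3.25, 7.87, 11.4 and 24.7 CPM. It was higher in *Hps1*-/- under both treatments, by a log2 ratio of 1.27 with PBS and 1.12 with bleomycin, the latter 0.71 after the correction and 0.99 with total counts alone. *Adamtsl1* was at 3.26, 5.01, 4.20 and 10.004 CPM, with a log2 ratio between the bleomycin libraries of 1.25. *Adamtsl5* was at 4.25, 4.32, 12.5 and 13.0 CPM. Its log2 ratio between the bleomycin libraries was 0.06, or -0.55 after the correction, and its bleomycin to PBS ratio in *Hps1*-/-, 1.58, was 0.71 after the correction and 0.94 with total counts alone.

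Fibroblasts are a known source of the products of *Mmp2*, *Mmp3*, *Timp1* and *Adamts2*. All 12 listed fibroblast markers were compared, and 11 were at least 2-fold higher in BLEO-HPS1 than BLEO-WT and 0 lower, with a median log2 ratio of 2.16. Their summed CPM was 252 in PBS-WT and 396 in PBS-HPS1, and 650 in BLEO-WT against 3149 in BLEO-HPS1. The most abundant was *Pi16* in PBS-WT, *Col1a2* in PBS-HPS1, *Col3a1* in BLEO-WT and *Col1a1* in BLEO-HPS1. *Lum*, a marker that encodes a small proteoglycan, was at 0.641, 0.757, 1.17 and 7.69 CPM, and *Pdgfra* at 16.4, 31.0, 22.4 and 35.01. The fibroblast sum was lowest in PBS-WT, then came PBS-HPS1, BLEO-WT and last BLEO-HPS1, and 11 of the 46 members had this order by CPM, against 4.78% of all compared genes. They were *Mmp2*, *Mmp3*, *Mmp23*, *Timp1*, *Timp3*, *Timp4*, *Adamts2*, *Adamts7*, *Adamts15*, *Adamtsl2* and *Adamtsl5*. This order was read from CPM without counting intervals. For *Adamtsl5* the interval between genotypes held 0 under PBS (-0.18 to 0.24) and after bleomycin (-0.08 to 0.19). That of *Timp4* held 0 under PBS (-0.39 to 1.24), and *Timp4* was compared through BLEO-HPS1 alone. After the correction *Adamtsl5* was lower in BLEO-HPS1 than in BLEO-WT, with a log2 ratio of -0.55. The order also depends on scaling. With total counts alone the fibroblast sum kept it, *Mmp23*, *Timp3*, *Adamts2*, *Adamts7* and *Adamtsl5* lost it and *Timp2* gained it, which left 7 members, against 4.53% of all genes. No fibroblast marker had 0 reads in any library, and the part of fibroblast RNA in these values was not tested. The 9 smooth muscle and pericyte markers summed to 34.3, 41.1, 70.2 and 105 CPM, led by *Notch3* in the PBS libraries, *Cspg4* in BLEO-WT and *Des* in BLEO-HPS1, and 4 of 8 compared were at least 2-fold higher in BLEO-HPS1 than BLEO-WT and 0 lower, or 3 and 1 after the correction.

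Further cell types were compared between the same bleomycin libraries. Summed CPM for 10 epithelial markers, led by *Sftpc*, was 1318, 976, 762 and 537, with 2 lower and 0 higher in BLEO-HPS1. Endothelial markers, 8 in all and led by *Pecam1* in the PBS libraries and *Vwf* in the others, summed to 870, 815, 955 and 1257 CPM, and none passed 2-fold. For 8 B and plasma cell markers, led by *Xbp1*, the sum was 437, 422, 386 and 689 CPM, with 4 higher. T cell markers, 7 in all and led by *Cd3g* in the PBS libraries, *Cd4* in BLEO-WT and *Cd3d* in BLEO-HPS1, summed to 644, 472, 564 and 1005 CPM, with 2 higher. The 6 mast cell and basophil markers, led in turn by *Mcpt8*, *Ms4a2*, *Tpsb2* and *Cma1*, summed to 40.1, 23.9, 13.2 and 7.38 CPM, with 4 lower. After the correction 5 B and plasma cell markers and 1 T cell marker were higher and 3 mast cell and basophil markers lower. These lists were described only, and none of their genes had 0 reads in a library.

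A run of 10 neighbouring *Mmp* genes lies on chr9:7272514-7699585 of GRCm38, in the order *Mmp13*, *Mmp12*, *Mmp1b*, *Mmp3*, *Mmp1a*, *Mmp10*, *Mmp8*, *Mmp27*, *Mmp20* and *Mmp7*. Only 4 of them were compared, and neighbours had unlike patterns. Between the bleomycin libraries the log2 ratio was -0.45 for *Mmp13*, -0.83 for *Mmp12*, 2.44 for *Mmp3* and -1.49 for *Mmp8*, and that of *Mmp13* was 0.09 after the correction. *Mmp13*, a collagenase named for its place in the run, stayed between 1.11 and 1.52 CPM in all 4 libraries, and the 6 genes of the run that were not compared had at most 0.459 CPM, in *Mmp27*. In 2 other places both of 2 neighbours were compared. The ratios were -0.53 and 1.29 for *Adamts1* and *Adamts5* on chromosome 16, and 0.77 and 1.24 for *Adamts15* and *Adamts8* on chromosome 9, a pair that was also above 0 in the other 3 comparisons.

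**Figure D4:**
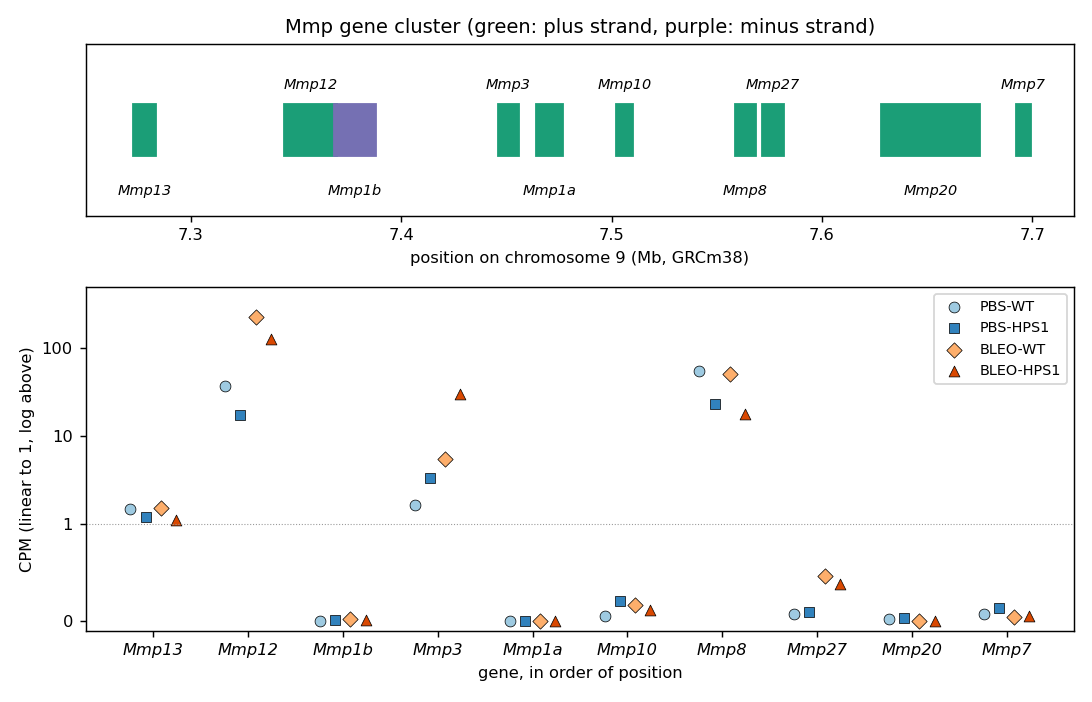
Position of the 10 *Mmp* genes on chromosome 9 (upper panel, Mb in GRCm38, color by strand) and their CPM in the 4 libraries (lower panel, linear up to 1 and log above, 1 symbol per library). *Mmp3* is highest in BLEO-HPS1 at 30.0, *Mmp12* in BLEO-WT at 227 and *Mmp8* in PBS-WT at 55.5, while 6 genes stay below 1 CPM.

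To set these patterns beside promoter sequence, the 250 bases before each RefSeq start (GRCm38.p6) were searched for 3 short motifs on both strands, and 53 of the 84 members had an entry. TGANTCA, the binding motif of the factor AP-1, reads the same on both strands and was found in 12 members, and in 6.75% of 32851 windows of all genes. Of the 10 genes of the run on chromosome 9, 8 held it, all but *Mmp8* and *Mmp27*. TATAAA was found in 13 members, 7 of them in the run, and in 12.4% of all windows. GGGCGG was found in 24 members, 0 of them in the run, and in 32.7% of all windows. *Adam19* was the 1 compared member outside the run with TGANTCA. A match describes the letters in a window and says nothing of binding in these cells. The 120 bases before the start are shown for the 4 compared genes of the run, to let their motif positions be seen beside their values, each on the plus strand and with TGANTCA in capitals. They lie at chr9:7272394-7272513 for *Mmp13*, chr9:7347254-7347373 for *Mmp12*, chr9:7445702-7445821 for *Mmp3* and chr9:7558309-7558428 for *Mmp8*, and for *Mmp12* they stand before the downstream one of its RefSeq starts, since the window before the upstream start had no match.
Mmp13: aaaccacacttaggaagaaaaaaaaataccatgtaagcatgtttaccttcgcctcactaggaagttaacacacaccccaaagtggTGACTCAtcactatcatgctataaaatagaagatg
Mmp12: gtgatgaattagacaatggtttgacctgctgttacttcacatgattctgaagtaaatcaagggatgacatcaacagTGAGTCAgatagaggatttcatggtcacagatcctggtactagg
Mmp3: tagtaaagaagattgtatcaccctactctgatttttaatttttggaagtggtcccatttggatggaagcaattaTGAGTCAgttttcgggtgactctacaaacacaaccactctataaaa
Mmp8: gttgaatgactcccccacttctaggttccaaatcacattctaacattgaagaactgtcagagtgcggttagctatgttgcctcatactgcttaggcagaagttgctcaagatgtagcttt
The motif began at -35 from the start in *Mmp13*, at -44 in *Mmp12* and at -46 in *Mmp3*. These 3 genes share it and had log2 ratios of -0.45, -0.83 and 2.44 between the bleomycin libraries.

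Other genes of matrix proteolysis were taken from lists. Of 16 regulators of MMPs and ADAMs, 15 were compared, and 2 were at least 2-fold higher in BLEO-HPS1 than BLEO-WT and 0 lower, with a median log2 ratio of 0.44. *Furin*, which activates many ADAM and MMP precursors, had 310 CPM in PBS-WT and 292 in PBS-HPS1, and 817 in BLEO-WT against 695 in BLEO-HPS1. It was higher in both bleomycin libraries, as *Mmp14* was, whose precursor it cuts. *Reck*, a membrane-bound MMP inhibitor, stayed between 7.32 and 9.91 CPM. Among astacin metalloproteases and procollagen proteinase enhancers 4 of 7 were compared, 3 of them higher in BLEO-HPS1 and 0 lower, with a median of 1.63. *Bmp1*, which removes the C-terminal propeptide of procollagens, had 6.53, 9.71, 10.7 and 38.7 CPM, and its enhancer *Pcolce* had 7.94, 13.5, 14.2 and 71.7. Both were highest in BLEO-HPS1, as was *Adamts2*, which acts on the other end of procollagens. The fibroblast marker sum, 252, 396, 650 and 3149 CPM, was highest there too, and its part in these values was not tested. *Mep1b* had 0 reads in BLEO-WT and BLEO-HPS1.

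Of 10 genes of plasminogen activation 7 were compared, with 1 higher in BLEO-HPS1 than BLEO-WT, 0 lower and a median of 0.29, which was -0.19 after the correction. *Plau*, the urokinase gene, had 14.7 CPM in PBS-WT and 11.2 in PBS-HPS1, and 62.1 in BLEO-WT against 52.3 in BLEO-HPS1, and thus differed by treatment. *Plg* had 0 reads in BLEO-WT. For matrix serine and cysteine proteases and their inhibitor cystatin C, 9 of 10 were compared, 1 was higher and 0 lower, and the median was -0.07. After the correction none of the 9 passed 2-fold and the median was 0.25. The cathepsin gene *Ctsb* had 1121, 772, 4434 and 4226 CPM. Over the list 4 genes were at least 2-fold higher with bleomycin in WT and 6 in *Hps1*-/-, where 5.28% and 26.2% of all genes were. The macrophage marker sum, 3645, 2778, 7692 and 8298 CPM, was also higher in the bleomycin libraries. Of its 14 genes, 6 were at least 2-fold higher and 2 lower in WT, and 5 were higher and 4 lower in *Hps1*-/-. *C1qa*, *C1qb* and *C1qc* made up much of the BLEO-HPS1 sum, at 2047, 1720 and 1189 CPM. The part of macrophage RNA in these values was not tested. Of 3 other ADAM-like and ADAMTS-like genes 2 were compared, 1 of them higher in BLEO-HPS1, and *Adamdec1*, a protease of gut macrophages, was at most 1.82 CPM.

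The 38 members that were not compared had at most 76 reads and 0.975 CPM, the latter for *Adam3* in PBS-WT. No read was counted in any library for 5 of them. PBS-HPS1 was the highest library for 19 of them, and it was also the library with the most reads on all genes below the filter, 271596 against 157587 in PBS-WT, 120642 in BLEO-WT and 102734 in BLEO-HPS1. Some members share exon sequence with a gene on the opposite strand, and the counting is not stated to use strand, so reads of such partners cannot be told apart. Members described above with such a partner include *Mmp19* with *Tmem198b*, *Timp3* with *Syn3* and *Timp4* with *Syn2*. Among ADAMs they include *Adam17* with *Iah1*, *Adam15* with *4731419I09Rik* and *Adam8* with *Gm16201*. *Iah1* had 1662, 1521, 2428 and 2787 reads, beside 9841, 9440, 9901 and 4070 of *Adam17*. Partners of other members, such as *Tbc1d2b* beside *Adamts7* and *Chchd10* beside *Mmp11*, named after their reads were seen, had more reads than the member in every library, as *Syn2* had beside *Timp4*.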

How the data were processed

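The authors deposited counts, as integers without normalization, for 1 library in each of 4 groups of lung ILC2s. Libraries were made from total RNA with a SMARTER kit, and the aligner, counting tool, strand setting and genome build are not given in the sources used here. Counts were scaled with TMM factors (edgeR 4.0.16, R 4.3.3) of 1.08, 1.27, 0.895 and 0.816, in the order used in the text. Log2 CPM had a prior count of 2, and a gene was called at 2-fold or more. Intervals are exact Clopper-Pearson intervals on reads. Lengths, GC content and positions came from GENCODE M21 (GRCm38) by gene ID, with all 84 members found. The members described in full were all *Timp* genes, members with at least 10 CPM that differed 2-fold between BLEO-HPS1 and BLEO-WT or 4-fold in any comparison, and the top 3 of each other family by mean CPM per kb. Members and lists were chosen with earlier results of these data known. Alternatives were DESeq2 size factors (1.42.0), total counts, prior counts of 0.5 and 10, other filters, a 4-fold threshold, edgeR's exact test with an assumed coefficient of variation of 0.4, and a loess fit that removes trends with GC content and length. The ratio and loess steps were tested on simulated data. Protein motifs were not searched.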

Additional observations from a re-analysis of the deposited data

Results flagged for a closer look

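For 10 of the 46 compared members the ratio of bleomycin to PBS lay below 0 in 1 genotype and above 0 in the other, with counting intervals that did not reach 0. This is 21.7% of the members, against 10.7% of all compared genes, and 4 of the 10 are described in full. *Adam10* had a log2 ratio of 0.38 in WT and -0.78 in *Hps1*-/-, a difference of -1.16. For *Adam9* the ratios were 0.86 and -0.60, a difference of -1.46. *Adamts10* had 0.19 and -0.54, a difference of -0.73, and *Mmp9* had -0.87 and 0.39, a difference of 1.26. With 1 library per group these differences between genotypes were not tested. Once trends with GC content and length were removed none of these 4 had opposite signs. The corrected ratios in WT and *Hps1*-/- were 0.93 and 0.54 for *Adam10*, 1.04 and 0.09 for *Adam9*, -0.02 and -1.07 for *Adamts10*, and -1.03 and -0.10 for *Mmp9*. With total counts alone the WT ratio of *Adamts10* was -0.07 and the *Hps1*-/- ratio of *Mmp9* was -0.26, so that for both genes the signs were then alike. The other 6 were *Adam11*, *Adam23*, *Adam33*, *Adamts9*, *Adamtsl3* and *Mmp25*. With total counts alone the *Hps1*-/- ratio of *Adamtsl3* was -0.29 in place of 0.35, so that both its ratios were negative. All of these but *Adam23*, at 0.06 and 1.79, kept opposite signs after the correction, with -0.93 in WT and 1.42 in *Hps1*-/- for *Adam11*, 0.10 and -2.65 for *Adam33*, 0.46 and -0.35 for *Adamts9*, -0.37 and 1.15 for *Adamtsl3*, and -0.67 and 0.86 for *Mmp25*. Only signs, without counting intervals, were compared after the correction and with total counts alone.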

How the results depend on the processing

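Of 64 ratios of fully described members past 2-fold, all kept their direction under the other scalings, prior counts and the GC content and length correction. The number no longer past 2-fold was 14 with the correction, 10 with total counts alone, 2 with a prior count of 10, and 0 with a prior count of 0.5 or DESeq2's size factors. Of all 184 member ratios the correction turned the sign of 20 and total counts of 17. Counts of members in single comparisons, or in the difference between genotypes, that changed by more than 1.5 times were as follows, and the cause was not tested. The correction gave 4 members lower in BLEO-HPS1 than in BLEO-WT, where 7 were without it, and 5 with a smaller bleomycin ratio in *Hps1*-/-, where 8 were. Total counts alone gave 3 members lower in PBS-HPS1 than in PBS-WT, 4 lower in BLEO-WT than in PBS-WT, and 14 higher and 13 lower in BLEO-HPS1 than in PBS-HPS1. No filter raised the members compared from 46 to 79 and the genes to 37499. Of the 79, 12 were lower in BLEO-HPS1 than in BLEO-WT (11.4% of all genes), 17 higher in PBS-HPS1 than in PBS-WT (18.1%), 10 lower in BLEO-WT than in PBS-WT (16.9%), 23 lower in BLEO-HPS1 than in PBS-HPS1 (32.7%), and 21 had a smaller bleomycin ratio in *Hps1*-/- (24.9%). At 4-fold, a stricter threshold by construction, 4 were higher and 0 lower in BLEO-HPS1 than in BLEO-WT (1.496% and 0.418% of all genes), 0 higher and 0 lower in PBS-HPS1 than in PBS-WT (0.276% and 1.004%), 5 higher and 1 lower in BLEO-WT than in PBS-WT (1.14% and 1.82%), and 8 higher and 2 lower in BLEO-HPS1 than in PBS-HPS1 (4.37% and 5.49%). The bleomycin ratio was then larger in *Hps1*-/- for 2 and smaller for 1 (2.33% and 1.48%). In edgeR's exact test with an assumed variation of 0.4, 0 members were called in either direction in BLEO-HPS1 against BLEO-WT (0.256% and 0.0270% of all genes) or PBS-HPS1 against PBS-WT (0.0809% and 0.337%), 1 was higher and 0 lower in BLEO-WT against PBS-WT (0.256% and 0.350%), and 5 were higher and 1 lower in BLEO-HPS1 against PBS-HPS1 (1.17% and 0.930%). Counts of members called in 2 comparisons at once changed as much. Higher with bleomycin in both genotypes were 9 in place of 14 with total counts, lower in both 2 in place of 1 with total counts or the correction, and higher in *Hps1*-/- under both treatments 3 in place of 5 with a prior count of 10 or the correction. No paired analysis was possible because each group had 1 library.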
